A study of Homo sapiens with 6 samples.

Results

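Transcripts for the proteins of the small nuclear ribonucleoproteins (snRNPs), the RNA-protein particles from which the spliceosome is built, were counted in LoVo cells after knockdown of SRSF11. The set was chosen by name from the gene table. It holds every protein-coding row whose symbol begins with SNRP, or with SF3A, SF3B, LSM, PRPF or U2AF and a digit, without the kinase PRPF4B. This gave 50 of the 58735 genes listed, and the rule uses names and biotypes only. SR proteins, the family of SRSF11, were not part of it.

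LoVo is an established human colorectal cancer line. The cells received a negative control siRNA (si-NC, 3 libraries) or an siRNA against SRSF11 (si-SRSF11, 3 libraries), both by transient transfection, and poly(A)-selected RNA was sequenced as paired-end reads. SRSF11 is a serine/arginine-rich splicing factor, and the study asked which splicing events and transcripts change when it is lowered. The labels do not name which siRNA against SRSF11 was used and do not say whether the 3 libraries of a condition came from separate transfections. The text of the study calls the RNA samples independent and speaks of pairs, without saying what was separate or which samples form a pair, so the p-values measure the spread between these libraries, which may be technical in part. One display of the study sets the library names beside the opposite conditions. The deposited labels were followed here, and SRSF11 was lower in the libraries labelled si-SRSF11.

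In splicing of pre-mRNA, the U1 snRNP pairs with the 5′ splice site, the U2AF dimer and the U2 snRNP mark the 3′ splice site and the branch point, and a preformed particle of U4, U6 and U5 then joins and is rearranged into the active enzyme. A ring of Sm proteins is clasped around the U1, U2, U4 and U5 snRNAs, a ring of related LSm proteins sits on the U6 snRNA, and each particle carries further proteins of its own. These are housekeeping parts of the cell, and proliferating epithelial cells are known to express them at high levels.

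The libraries held 14369525 to 16685719 counts. Reads counted per gene are given in the order of replicates 1, 2 and 3. SRSF11 had 1271, 1281 and 1363 reads with si-NC and 789, 789 and 807 with si-SRSF11, and fell from 86.5 ± 1.9 CPM in si-NC to 49.5 ± 0.95 CPM in si-SRSF11 (SD, n = 3 libraries here and below; log2 fold change -0.81, standard error 0.054, adjusted p = 6.1e-10 by edgeR's quasi-likelihood test with Benjamini-Hochberg adjustment over all tested genes). CPM is the count brought to a common library total with edgeR's TMM factors. The share of mitochondrial counts was 7.0% to 7.25% in si-NC and 8.29% to 8.51% in si-SRSF11, and its part in the results was not tested. Of 10 colorectal epithelial markers, all 10 had enough counts for the test, with KRT8 at 3139.9 and KRT18 at 1179 CPM in si-NC, whereas KRT20 and CEACAM5, also on that list, stood at 0.701 and 1.07 CPM. Of 10 markers of leukocytes, endothelium, fibroblasts and muscle, 5 reached the count minimum, and PTPRC and DCN had 0 counts in every library. The muscle marker DES stood at 37.2 CPM in si-NC and 44.1 CPM in si-SRSF11 and passed the test (0.25, adjusted p = 0.0103). COL1A1 (12.7 CPM in si-NC), ACTA2 (4.41 CPM), VWF (1.15 CPM) and PECAM1 (0.686 CPM) did not pass, and the part of these markers in the results was not tested.

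Of the 50 members, 49 had at least 10 counts in at least 3 libraries and were tested. SNRPN (ENSG00000128739, chromosome 15, 24823637 to 24978723, plus strand) had 0 counts in all 6 libraries. It encodes the SmB-like protein SmN of brain and lies in an imprinted locus. SNURF, which shares its transcript, had 0 counts as well. Of the exon bases of SNRPN, 33.6% are shared on the same strand with AC124312.1, SNHG14 or SNURF. How reads in shared stretches were counted is not known, so the 0 counts need not mean absence of the transcript. At an adjusted p under 0.05, 18 of the 49 tested members differed between si-SRSF11 and si-NC (36.7%), where 24.6% of all 15801 tested genes and 27.4% of the 12770 tested protein-coding genes did. Of the 18, 15 were higher, in a background of 13.2% of all tested genes, and 3 were lower, in a background of 11.4%. With scaling by library size alone the split was 11 higher and 4 lower. The median log2 fold change of the 49 was 0.031 (-0.0035 with scaling by library size alone), and that of all tested genes was 0.0015.

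**Figure D1:**
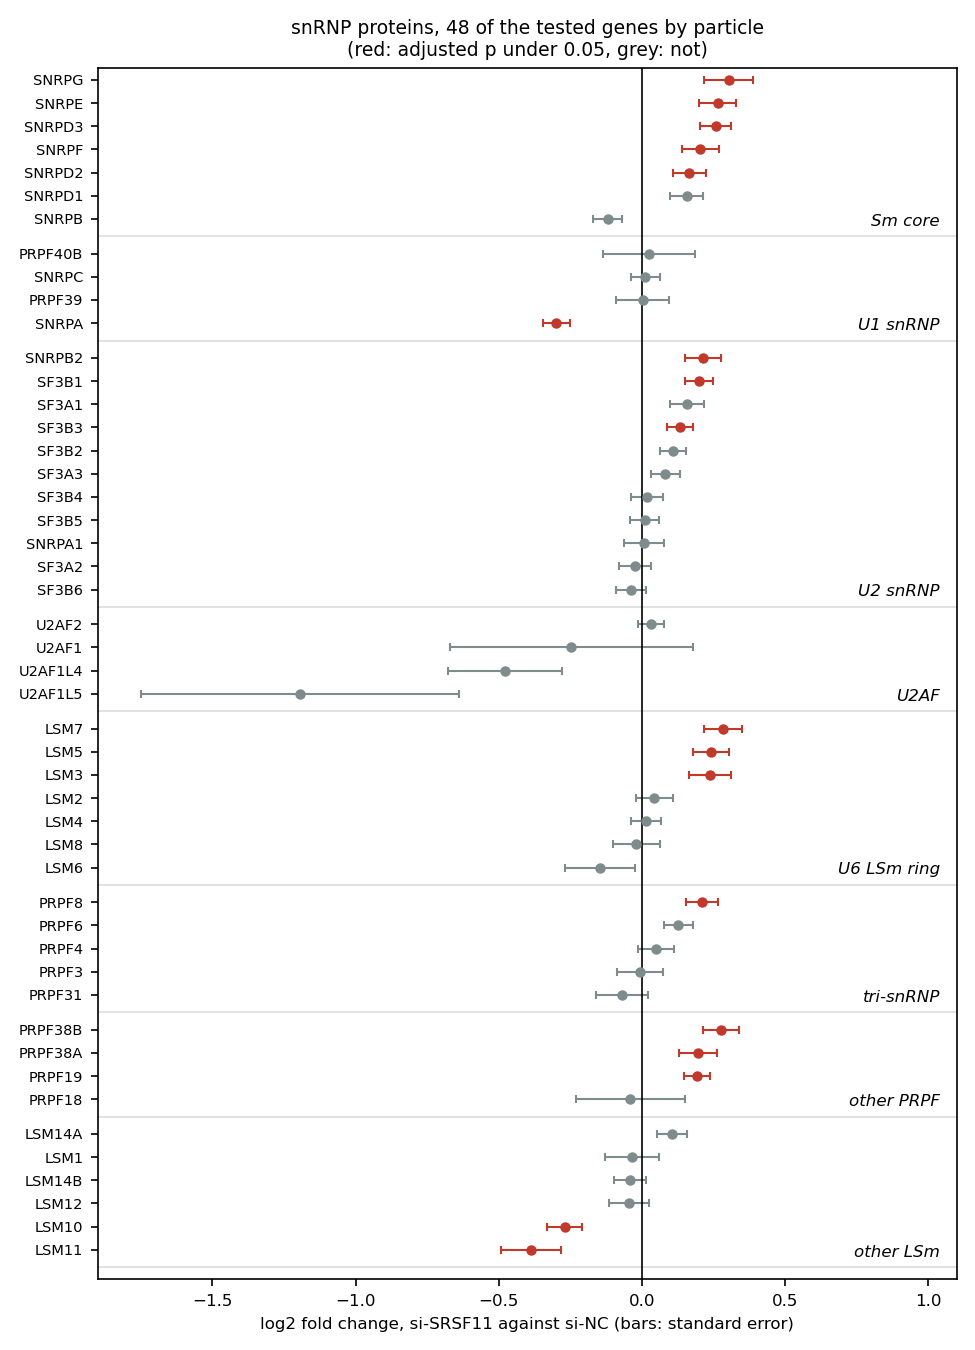
Log2 fold change of si-SRSF11 against si-NC (horizontal axis) for 48 of the 49 tested snRNP protein genes, grouped by particle, with bars of 1 standard error from edgeR's fit of 3 libraries per condition. Red points have an adjusted p under 0.05 and grey points do not. All red points lie within -0.39 and 0.30, and the points farthest to the left, U2AF1L5 and U2AF1L4, are grey.

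The changes were small. Among the 18 members that passed, the fold change ran from -0.39 (LSM11) to 0.30 (SNRPG) on the log2 scale, and no member passed a log2 fold change of 1 in either direction together with the adjusted p, as 1.09% of all tested genes did. The libraries of the 2 conditions did not overlap for 21 of the 49 members, 17 of them higher and 4 lower, where 38.8% of all tested genes showed no overlap (20.0% higher, 18.9% lower). Of the 18 called members, 16 were among those without overlap, and SNRPF and SNRPG were the exceptions. An exact two-sided permutation test of 1 gene cannot go below p = 0.1 with 3 libraries against 3.

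Of the 7 tested Sm core genes, SNRPD2, SNRPD3, SNRPE, SNRPF and SNRPG rose, where 13.2% of all tested genes did, none fell past the threshold, and SNRPB and SNRPD1 did not pass. The number that rose was 2 without si-NC replicate 3 or without si-SRSF11 replicate 3, 3 without si-NC replicate 1, without si-SRSF11 replicate 2, with scaling by library size or with DESeq2, and 6 without si-SRSF11 replicate 1. The 13.2% belongs to the edgeR fit of all libraries with TMM factors, and the share of all tested genes in these other fits is not given here. The Sm proteins form the ring that the SMN complex loads onto newly made snRNAs, and each stands once in it. SNRPD3 (ENSG00000100028, chromosome 22, 24555503 to 24609980, plus strand) had 1195, 1225 and 1344 reads with si-NC and 1498, 1578 and 1712 with si-SRSF11. All 3 si-SRSF11 libraries lay above all 3 si-NC libraries (log2 fold change 0.26, standard error 0.053, adjusted p = 0.00110), but 24.6% of the exon bases of the gene are also exon bases of GGT1 or GUCD1.

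SNRPE (ENSG00000182004, chromosome 1, 203861603 to 203870550, plus strand) had 802, 820 and 835 reads with si-NC and 915, 1108 and 1122 with si-SRSF11. It rose from 54.3 ± 0.90 CPM in si-NC to 65.2 ± 5.8 CPM in si-SRSF11 without overlap (log2 fold change 0.26, standard error 0.064, adjusted p = 0.00390). Of the 100-base windows of its longest coding transcript, 10.6% also occur in the pseudogene SNRPEP4, which had 9 to 57 counts. SNRPG (ENSG00000143977, chromosome 2, 70281362 to 70293771, minus strand) had 885, 985 and 921 reads with si-NC and 954, 1309 and 1411 with si-SRSF11. It showed the largest rise of the set (log2 fold change 0.30, standard error 0.085, adjusted p = 0.0118), yet si-SRSF11 replicate 1 lay within the si-NC range while replicates 2 and 3 lay far above it. The SNRPG call was lost without si-NC replicate 3 (adjusted p = 0.0534), without si-SRSF11 replicate 2 (adjusted p = 0.0614), without si-SRSF11 replicate 3 (adjusted p = 0.0813) and with DESeq2 (adjusted p = 0.167).

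SNRPF (ENSG00000139343, chromosome 12, 95858928 to 95903828, plus strand) had 1038, 1199 and 1201 reads with si-NC and 1203, 1470 and 1544 with si-SRSF11. It showed the same picture as SNRPG, with si-SRSF11 replicate 1 inside the si-NC range (log2 fold change 0.20, standard error 0.066, adjusted p = 0.0264). Without si-NC replicate 1 or 3 or si-SRSF11 replicate 2 or 3 its adjusted p was 0.0545 to 0.147, and with scaling by library size it was 0.0591. SNRPD2 (ENSG00000125743, chromosome 19, 45687454 to 45692569, minus strand) had 2413, 2579 and 2530 reads with si-NC and 2741, 2836 and 3414 with si-SRSF11. Its libraries did not overlap, and the rise (log2 fold change 0.17, standard error 0.059, adjusted p = 0.0442) rested mainly on si-SRSF11 replicate 3, without which the log2 fold change was 0.069 and the adjusted p 0.303. The SNRPD2 call was also lost without any 1 of the si-NC replicates (adjusted p = 0.083 to 0.14), with scaling by library size (0.102) or upper quartile (0.0573), with protein-coding genes alone (0.051) and with DESeq2 (0.0711).

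SNRPB, which encodes SmB and SmB′, was the most abundant member of the whole set at 633 ± 17 TPM in si-NC (TPM also divides by gene length, so that genes can be compared). It had 3953, 3985 and 4248 reads with si-NC and 3678, 3950 and 4316 with si-SRSF11. Its log2 fold change pointed the other way from the rest of the ring (log2 fold change -0.12, standard error 0.050, adjusted p = 0.0854), and it passed without si-SRSF11 replicate 3 (log2 fold change -0.18, adjusted p = 0.0061), with scaling by library size (-0.15, adjusted p = 0.0199) and with protein-coding genes alone (-0.13, adjusted p = 0.0423). Of the exon bases of SNRPB, 20.0% are shared with AL049650.1 on the same strand. SNRPD1, the remaining member, stood just outside the threshold (log2 fold change 0.16, standard error 0.058, adjusted p = 0.0520), and without si-SRSF11 replicate 1 it passed at 0.20 (adjusted p = 0.0107).

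Summed over the ring, the Sm proteins took 782, 789 and 785 CPM in si-NC and 779.8, 842 and 914 CPM in si-SRSF11, replicates 1, 2 and 3 in order. The si-NC sums were close together (785 ± 3.4 CPM), while the si-SRSF11 sums were spread widely (845 ± 67 CPM), and the conditions overlapped.

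**Figure D2:**
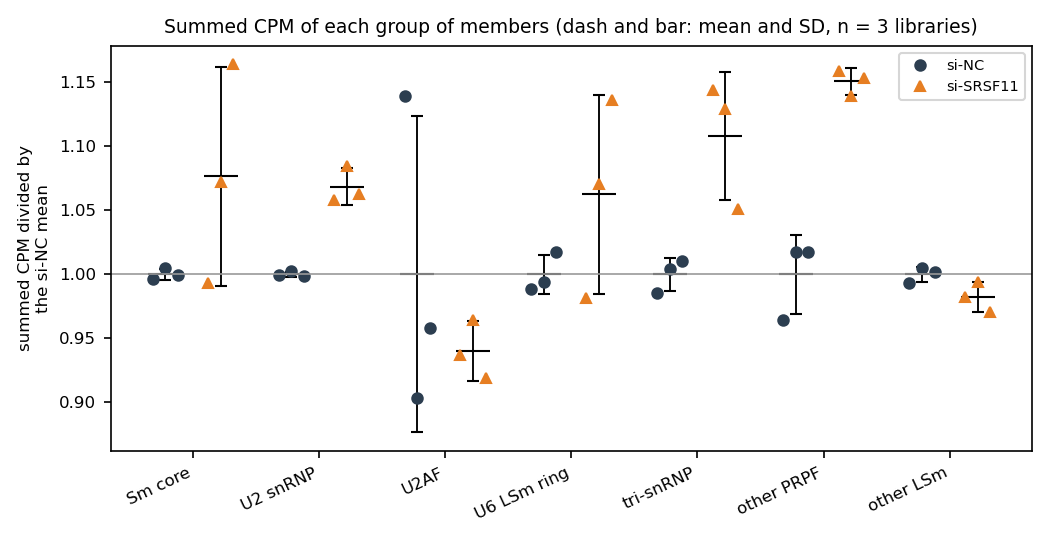
Summed CPM of each group of members except the U1 snRNP in each library (vertical axis), divided by the mean of the 3 si-NC libraries. Circles are si-NC and triangles si-SRSF11, with replicates 1 to 3 from left to right, and dashes with bars are means and SD. The Sm core and the U6 LSm ring sums of si-SRSF11 are spread from just below to well above the si-NC level, whereas those of U2 and of the other PRPF proteins lie together above it.

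In the U1 snRNP, which opens splicing at the 5′ splice site, 1 of 5 tested members passed (20%, beside 24.6% of all tested genes), and it fell. SNRPA (ENSG00000077312, chromosome 19, 40750637 to 40765389, plus strand) encodes the U1-A protein, which binds a stem-loop of the U1 snRNA and also the 3′ end of its own pre-mRNA. It had 2068, 2205 and 2381 reads with si-NC and 1906, 1913 and 1934 with si-SRSF11. Every si-SRSF11 library lay below every si-NC library, and the level went from 147 ± 5.3 CPM in si-NC to 119 ± 2.2 CPM in si-SRSF11. Its log2 fold change of -0.30 (standard error 0.048) had the smallest adjusted p of the set, 8.0e-05. It stayed between -0.32 and -0.27 with any 1 library left out. Of its exon bases, 3.77% overlap those of C19orf54 on the other strand.

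SNRPC, the U1-C protein that steadies the pairing of U1 with the splice site, had 1645, 1727 and 1946 reads with si-NC and 1799, 1889 and 2017 with si-SRSF11 and overlapped between conditions (log2 fold change 0.012, standard error 0.052, adjusted p = 0.896). Among homologues of yeast U1 proteins, PRPF39 (0.0019, adjusted p = 0.991) and PRPF40B (0.024, adjusted p = 0.935) did not pass, and 48.7% of the exon bases of PRPF40B belong to neighbours as well.

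The U2 snRNP, which bulges out the branch-point adenosine, had 11 tested members, of which 3 rose and none fell past the threshold. The share called was 27.3%, beside 24.6% of all tested genes and 27.4% of tested protein-coding genes. SF3B1 (ENSG00000115524, chromosome 2, 197389784 to 197435091, minus strand), the scaffold of the SF3B complex that closes around the branch helix and is often mutated in blood cancers, had 1726, 1918 and 1827 reads with si-NC and 2165, 2265 and 2256 with si-SRSF11. The 3 si-SRSF11 libraries were almost equal in CPM and all above si-NC (121 ± 4.7 CPM in si-NC to 139 ± 0.56 CPM in si-SRSF11; log2 fold change 0.20, standard error 0.047, adjusted p = 0.00355). SNRPB2 (ENSG00000125870, chromosome 20, 16729961 to 16742563, plus strand), the U2-B″ protein on the U2 snRNA and a close relative of U1-A, had 660, 733 and 764 reads with si-NC and 850, 848 and 965 with si-SRSF11. It rose without overlap (log2 fold change 0.21, standard error 0.063, adjusted p = 0.0159), in the opposite direction to SNRPA, and the call was lost without si-NC replicate 1 (adjusted p = 0.094) or si-SRSF11 replicate 3 (adjusted p = 0.0768). SF3B3 (ENSG00000189091, chromosome 16, 70523788 to 70577670, plus strand), a large propeller-shaped SF3B subunit, had 2630, 2863 and 2802 reads with si-NC and 3142, 3324 and 3213 with si-SRSF11. It rose without overlap but by little (log2 fold change 0.13, standard error 0.046, adjusted p = 0.0397), and it passed in 1 of the 6 fits with a library left out, the one without si-SRSF11 replicate 3 (adjusted p = 0.051 to 0.143 in the other 5), and not with scaling by library size (adjusted p = 0.13) or upper quartile (0.053), with no filter (0.0912) or with DESeq2 (0.0512).

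SF3B2, another SF3B subunit and the U2 protein with the highest CPM, had 4139, 4229 and 4462 reads with si-NC and 4770, 5097 and 4861 with si-SRSF11. Its libraries did not overlap, but the fold change of 0.11 did not pass (standard error 0.045, adjusted p = 0.0857), and without si-SRSF11 replicate 3 it did (0.12, adjusted p = 0.0459). SF3A1, the SF3A subunit that reaches the U1 particle, likewise lay above si-NC in each si-SRSF11 library without passing (0.16, adjusted p = 0.0536), and it passed at 0.19 without si-SRSF11 replicate 1 (adjusted p = 0.0289) or 3 (adjusted p = 0.0239), at 0.15 with no filter on low counts (adjusted p = 0.0339) and at 0.16 with 10 counts asked of all 6 libraries (adjusted p = 0.0493). The other SF3A subunits were SF3A2 (-0.025, adjusted p = 0.783) and SF3A3 (0.081, adjusted p = 0.266). Among the small SF3B subunits, SF3B4, the partner of SF3B2, had a log2 fold change of 0.018, SF3B5 had 0.0091 and SF3B6, which contacts the branch adenosine, had -0.038, with adjusted p of 0.850, 0.921 and 0.652. SNRPA1, the U2-A′ partner of U2-B″, was at 0.0074, adjusted p = 0.954. Over the whole particle the sums were 1226, 1229 and 1225 CPM in si-NC and 1298, 1331 and 1304 CPM in si-SRSF11, without overlap.

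None of the 4 members named U2AF passed. U2AF2 (ENSG00000063244, chromosome 19, 55654146 to 55674715, plus strand), the large subunit that reads the polypyrimidine tract, had 2858, 2974 and 3143 reads with si-NC and 3226, 3224 and 3306 with si-SRSF11 and overlapped between conditions (log2 fold change 0.031, standard error 0.046, adjusted p = 0.673). U2AF1L4, a paralogue of the small subunit, had 40 to 58 counts, all 3 si-SRSF11 libraries below si-NC (log2 fold change -0.48, standard error 0.20, adjusted p = 0.0868), and 30.3% of its exon bases are shared with AD000671.2 or PSENEN.

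U2AF1, the small subunit that reads the AG at the 3′ splice site, is listed in 2 places of chromosome 21, as U2AF1 (43092956 to 43107587) and as U2AF1L5 (6484623 to 6499261), both on the minus strand of GRCh38. The coding sequences of the GENCODE 29 transcripts ENST00000291552.8 and ENST00000610664.4 are 720 bases long and differ at 0 positions. Their shared first 120 bases are printed here because no read within them can be assigned to one copy, with the start codon in capitals. They run over exons of chr21:43104327-43107494 for U2AF1 and of chr21:6496005-6499172 for U2AF1L5, with introns removed.
U2AF1 and U2AF1L5: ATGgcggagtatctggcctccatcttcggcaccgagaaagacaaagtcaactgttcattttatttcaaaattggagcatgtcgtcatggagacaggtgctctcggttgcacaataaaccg

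U2AF1 had 48, 39 and 299 reads with si-NC and 101, 86 and 156 with si-SRSF11. U2AF1L5 had 987, 209 and 69 reads with si-NC and 129, 397 and 74 with si-SRSF11. The share of the pair that was placed on U2AF1 ranged from 4.64% in si-NC replicate 1 to 81.3% in si-NC replicate 3, within 1 condition. The log2 fold changes of -0.25 (U2AF1, adjusted p = 0.719) and -1.19 (U2AF1L5, adjusted p = 0.124) therefore cannot be read as changes of either gene. Without si-NC replicate 3 that of U2AF1 turned to 1.28 (adjusted p = 7.0e-04), and without si-NC replicate 1 that of U2AF1L5 turned to 0.46 (adjusted p = 0.524). U2AF1L5 passed at -1.71 without si-NC replicate 3 (adjusted p = 0.0081) and at -2.16 without si-SRSF11 replicate 2 (adjusted p = 0.0207), and with no filter its adjusted p was 1.8e-31. Added up, the pair had 1035, 248 and 368 counts in si-NC and 230, 483 and 230 in si-SRSF11. The sums overlapped between the conditions, si-NC replicate 1 was more than any other library, and the sum, fitted as 1 gene after the data had been seen, gave a log2 fold change of -0.92 (adjusted p = 0.0486).

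**Figure D3:**
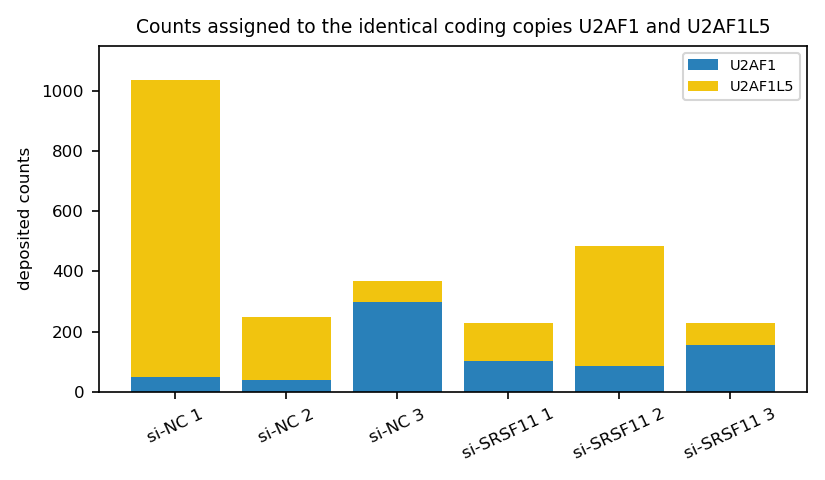
Deposited counts (vertical axis) on U2AF1 (blue) and U2AF1L5 (yellow), stacked for each of the 6 libraries. The split between the copies differs from library to library within each condition, and si-NC replicate 1 has the tallest bar, at 1035 counts.

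The U6 LSm ring, LSM2 to LSM8, binds the uridine tail of the U6 snRNA. Of its 7 tested members 3 rose, LSM3, LSM5 and LSM7, and none fell past the threshold (42.9% called, beside 24.6% of all tested genes). LSM7 (ENSG00000130332, chromosome 19, 2321517 to 2328620, minus strand) had 950, 1014 and 1062 reads with si-NC and 1116, 1362 and 1446 with si-SRSF11. It rose from 66.8 ± 1.3 CPM in si-NC to 81.3 ± 8.9 CPM in si-SRSF11 without overlap, with si-SRSF11 replicate 1 nearest to si-NC (log2 fold change 0.28, standard error 0.066, adjusted p = 0.00281). LSM5 (ENSG00000106355, chromosome 7, 32485332 to 32495283, minus strand) had 566, 608 and 612 reads with si-NC and 701, 785 and 762 with si-SRSF11. It rose without overlap and with less spread (log2 fold change 0.24, standard error 0.062, adjusted p = 0.00651). LSM3 (ENSG00000170860, chromosome 3, 14178358 to 14201119, plus strand) had 457, 492 and 534 reads with si-NC and 546, 639 and 676 with si-SRSF11. Its lowest si-SRSF11 library was close to its highest si-NC library (log2 fold change 0.24, standard error 0.074, adjusted p = 0.0226), the call was lost without si-NC replicate 1 or 2 or si-SRSF11 replicate 2 or 3 (adjusted p = 0.0715 to 0.102) or with DESeq2 (adjusted p = 0.0507), and 8.34% of its exon bases overlap XPC.

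LSM4, the ring member with the highest CPM, had 3692, 3800 and 4035 reads with si-NC and 3734, 4176 and 4498 with si-SRSF11, so that si-SRSF11 replicate 1 was the lowest and replicate 3 the highest library in CPM (log2 fold change 0.015, standard error 0.052, adjusted p = 0.865). LSM2 (0.043, adjusted p = 0.679), LSM8 (-0.020, adjusted p = 0.886), the subunit that sets the nuclear ring apart from the cytoplasmic one, and LSM6 (-0.15, adjusted p = 0.411) did not pass. For LSM6 the counts were 148 in si-SRSF11 replicate 1 against 213 and 216 in replicates 2 and 3. The sums over the ring were 476, 478 and 489 CPM in si-NC and 472, 515 and 546 CPM in si-SRSF11 and overlapped, in the same order of si-SRSF11 libraries as for the Sm ring.

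The deviations of single libraries were also taken by gene length. For each library, the deviation was taken from the mean of the other replicates of its condition. Among the 25 tested members whose exons covered 3381 bases or less, its median was -0.083 log2 units in si-SRSF11 replicate 1. It was -0.030 in replicate 2 and 0.12 in replicate 3, while in si-NC it lay between -0.017 and 0.037. Among the 24 longer members it was -0.062, 0.067 and -0.023 in si-SRSF11 replicates 1, 2 and 3. Over all tested protein-coding genes the 3442 within the same length limit had medians of -0.054, -0.024 and 0.088 in those replicates, and the 9328 longer ones 0.021, 0.0099 and -0.023. Replicate 1 of si-SRSF11 was below the other replicates in the shorter and in the longer members. Replicate 3 was above them in the shorter members and below them in the longer ones. Across members, the deviation correlated with log length by 0.13, 0.27 and -0.37 in si-SRSF11 replicates 1, 2 and 3. In si-NC replicates 1, 2 and 3 the correlation was 0.14, -0.21 and -0.027. SNRPD1, LSM3, LSM5, LSM6 and LSM8 belong to the longer members and the other tested genes of both rings to the shorter. The part of length in the results on both rings was not tested.

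The U4/U6.U5 tri-snRNP, which brings the catalytic U6 and U5 into the spliceosome, had 5 tested members, of which 1 passed (20%, beside 24.6% of all tested genes). PRPF8 (ENSG00000174231, chromosome 17, 1650629 to 1684882, minus strand), the large U5 protein that cradles the catalytic centre, had 4051, 4380 and 4477 reads with si-NC and 5583, 5408 and 4872 with si-SRSF11. It rose without overlap (log2 fold change 0.21, standard error 0.055, adjusted p = 0.00717), and here si-SRSF11 replicate 1 was the highest and replicate 3 the lowest, the reverse of the order in the Sm ring. PRPF6, which bridges U5 to U4/U6, had 1204, 1304 and 1304 reads with si-NC and 1398, 1492 and 1540 with si-SRSF11, without overlap, and did not pass (log2 fold change 0.13, standard error 0.050, adjusted p = 0.0714). The U4/U6 proteins PRPF3 (-0.0070, adjusted p = 0.961), PRPF4 (0.049, adjusted p = 0.612) and PRPF31 (-0.069, adjusted p = 0.625) did not pass, and 32.0% of the exon bases of PRPF31 are shared with AC245052.4 or TFPT. The sums over the tri-snRNP members were 474, 483 and 486 CPM in si-NC and 550.0, 543 and 505 CPM in si-SRSF11, without overlap. PRPF8, the most abundant of them, alone went from a mean of 285 CPM in si-NC to 329.5 CPM in si-SRSF11. In mean CPM, PRPF4 and PRPF6 were higher and PRPF3 and PRPF31 lower with si-SRSF11.

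Of the 4 other PRPF genes, 3 rose (75% called, beside 24.6% of all tested genes). PRPF19 (ENSG00000110107, chromosome 11, 60890730 to 60906588, minus strand), the ubiquitin ligase at the heart of the complex that activates the spliceosome, had 3375, 3668 and 3780 reads with si-NC and 4353, 4296 and 4501 with si-SRSF11. All si-SRSF11 libraries lay above all si-NC libraries (239 ± 5.4 CPM in si-NC to 273 ± 7.5 CPM in si-SRSF11; log2 fold change 0.19, standard error 0.046, adjusted p = 0.00386). PRPF38B (ENSG00000134186, chromosome 1, 108692323 to 108701803, plus strand), a relative of PRPF38A, had 658, 771 and 784 reads with si-NC and 915, 1011 and 924 with si-SRSF11 and rose without overlap (log2 fold change 0.28, standard error 0.063, adjusted p = 0.00239). PRPF38A (ENSG00000134748, chromosome 1, 52404564 to 52420839, plus strand), a factor that joins the spliceosome just before activation, had 521, 598 and 616 reads with si-NC and 658, 730 and 727 with si-SRSF11. It rose without overlap (log2 fold change 0.20, standard error 0.066, adjusted p = 0.0325), and the call was lost without si-NC replicate 1 or 2 or si-SRSF11 replicate 2 or 3 (adjusted p = 0.0533 to 0.172), with scaling by library size (adjusted p = 0.0778), with no filter on low counts (adjusted p = 0.0656) and with DESeq2 (adjusted p = 0.0805). PRPF18, which helps in the second step of splicing, had 65, 71 and 55 reads with si-NC and 61, 77 and 60 with si-SRSF11 and did not pass (log2 fold change -0.040, standard error 0.19, adjusted p = 0.903). The sums over the 4 were 319, 336 and 336 CPM in si-NC and 383, 376 and 381 CPM in si-SRSF11, without overlap.

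The remaining 6 LSm genes are not parts of the U6 ring, and 2 of them fell (33.3% called, beside 24.6% of all tested genes). LSM10 and LSM11 replace SmD1 and SmD2 in the ring of the U7 snRNP, which trims the 3′ ends of replication-dependent histone transcripts and takes no part in splicing. LSM10 (ENSG00000181817, chromosome 1, 36391238 to 36397892, minus strand) had 728, 737 and 760 reads with si-NC and 629, 668 and 668 with si-SRSF11. Its si-SRSF11 libraries were close together and all below si-NC (49.2 ± 0.91 CPM in si-NC to 40.8 ± 0.48 CPM in si-SRSF11; log2 fold change -0.27, standard error 0.060, adjusted p = 0.00206). LSM11 (ENSG00000155858, chromosome 5, 157743695 to 157760709, plus strand) had 247, 288 and 241 reads with si-NC and 216, 216 and 199 with si-SRSF11. It fell without overlap by the largest log2 fold change among the called members (log2 fold change -0.39, standard error 0.10, adjusted p = 0.00887), and the call was lost in 1 fit, without si-NC replicate 2 (-0.31, adjusted p = 0.064).

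Neither gene shares exon bases with another, and both differ in direction from the called Sm core genes. The U7 ring also holds SmB, SmD3, SmE, SmF and SmG, and the genes of 4 of these rose. LSM14A, an RNA-binding protein of processing bodies, had 1977, 2151 and 2155 reads with si-NC and 2405, 2537 and 2241 with si-SRSF11 and overlapped (log2 fold change 0.10, standard error 0.052, adjusted p = 0.155). Without si-SRSF11 replicate 3 it passed at 0.15 (adjusted p = 0.0174). Its relative LSM14B (-0.042, adjusted p = 0.642), LSM12 (-0.045, adjusted p = 0.685), an LSm-domain protein, and LSM1 (-0.036, adjusted p = 0.820), which takes the place of LSM8 in the cytoplasmic ring of mRNA decay, did not pass. The sums over these 6 genes were 342, 345 and 345 CPM in si-NC and 338, 342 and 334 CPM in si-SRSF11, and overlapped.

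**Figure D4:**
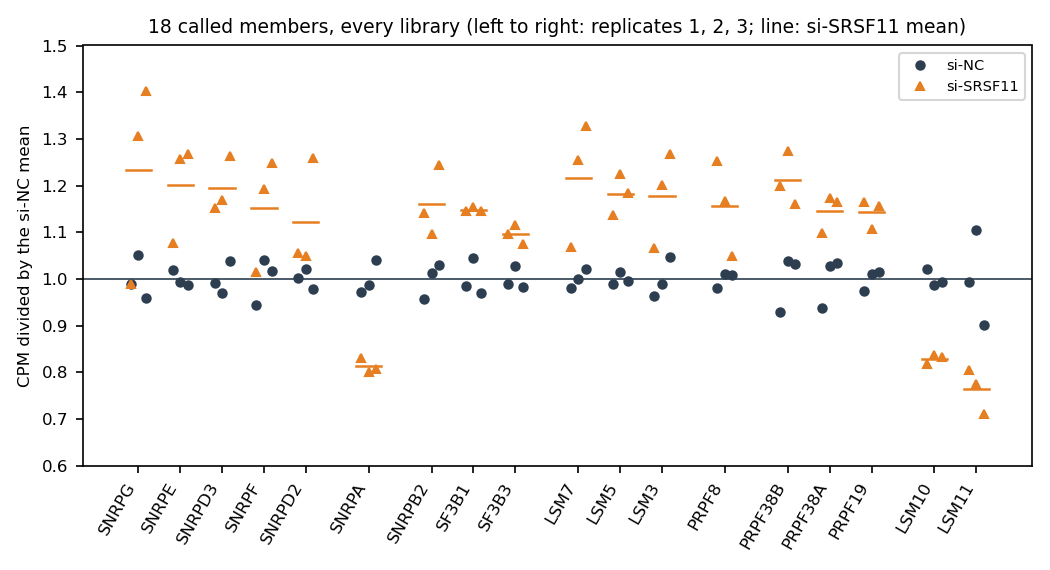
CPM of the 18 called members in every library, divided by the mean of the 3 si-NC libraries (vertical axis), with circles for si-NC, triangles for si-SRSF11 and replicates 1 to 3 from left to right within a gene. SNRPA, LSM10 and LSM11 lie below the si-NC level in all si-SRSF11 libraries, and for SNRPG and SNRPF the first si-SRSF11 triangle lies among the circles.

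The call was kept in all 6 fits with a library left out and in all 7 fits with another scaling, filter, gene set, tool or block by 10 of the 18 members, namely SNRPD3, SNRPE, SNRPA, SF3B1, LSM5, LSM7, PRPF8, PRPF19, PRPF38B and LSM10. No called member changed sign in any of these fits. Of the members that did not pass, 8 passed in at least 1 of them. Of the 23 tested members that share under 1% of their exon bases and of their transcript windows with other genes, 10 passed (43.5%), 8 higher and 2 lower. Of the 26 tested members that share more, 8 passed (30.8%), 7 higher and 1 lower. Among all tested genes 24.6% passed.

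Promoters were compared to see what the members share in sequence. RefSeq gave a start site for 41 of the 50 members (GRCh38.p14), each with 250 bases before it and 50 after it, and 6 short motifs were searched on both strands. They were the ETS core CCGGAAG, the GC box GGGCGG, the CCAAT box CCAAT, the TATA box TATAAA, the E-box CACGTG and the YY1 core AAGATGGC, and none contains another. The ETS core occurred in 18 of the 41 (43.9%), in 22.1% of tested protein-coding genes and in 12.2% of all 27305 genes with a promoter in the table. The YY1 core occurred in 6 (14.6%), against 6.41% and 3.52%. The TATA box occurred in 1, SNRPC, against 8.24% and 14.0%. The GC box (26 of 41, 63.4%, against 77.0% and 48.3%) and the CCAAT box (17 of 41, 41.5%, against 42.7% and 39.7%) were common throughout, and the E-box occurred in 1 member, SF3B1 (2.44%, against 12.6% and 8.77%).

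By direction, the ETS core was present in 5 of the 14 members with a promoter that rose, in 0 of the 3 that fell and in 13 of the 24 that did not pass or were not tested. Promoters of 3 members that rose and of the U7 pair that fell are shown as examples. Among these, only PRPF8 shares exon bases with another gene (1.38%). Other called members that share none, such as SF3B1, SNRPE and LSM5, are not shown. Each run starts 250 bases before the RefSeq start and ends at most 30 bases after the first annotated start, it is written on the strand of the gene, and capitals mark the motifs found. The regions are chr17:1684853-1685117 (PRPF8, minus strand), chr11:60906559-60906835 (PRPF19, minus strand), chr1:108692060-108692339 (PRPF38B, plus strand), chr1:36397879-36398158 (LSM10, minus strand) and chr5:157743462-157743724 (LSM11, plus strand).
PRPF8: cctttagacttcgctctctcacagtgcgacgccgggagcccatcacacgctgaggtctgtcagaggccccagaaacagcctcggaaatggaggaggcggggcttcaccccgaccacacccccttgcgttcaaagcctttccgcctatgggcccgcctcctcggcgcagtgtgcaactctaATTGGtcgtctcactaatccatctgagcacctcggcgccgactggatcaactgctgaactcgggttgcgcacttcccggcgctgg
PRPF19: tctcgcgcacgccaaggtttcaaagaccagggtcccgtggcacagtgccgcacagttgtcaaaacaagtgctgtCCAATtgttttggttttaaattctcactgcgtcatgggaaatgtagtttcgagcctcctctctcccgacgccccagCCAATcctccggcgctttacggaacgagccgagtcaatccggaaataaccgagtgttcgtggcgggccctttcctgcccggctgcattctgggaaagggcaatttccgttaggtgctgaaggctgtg
PRPF38B: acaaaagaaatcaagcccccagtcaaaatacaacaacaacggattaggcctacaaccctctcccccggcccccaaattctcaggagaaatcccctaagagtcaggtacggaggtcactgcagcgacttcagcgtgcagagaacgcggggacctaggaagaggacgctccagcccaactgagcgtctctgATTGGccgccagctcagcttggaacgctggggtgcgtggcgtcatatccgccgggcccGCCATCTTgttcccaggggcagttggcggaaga
LSM10: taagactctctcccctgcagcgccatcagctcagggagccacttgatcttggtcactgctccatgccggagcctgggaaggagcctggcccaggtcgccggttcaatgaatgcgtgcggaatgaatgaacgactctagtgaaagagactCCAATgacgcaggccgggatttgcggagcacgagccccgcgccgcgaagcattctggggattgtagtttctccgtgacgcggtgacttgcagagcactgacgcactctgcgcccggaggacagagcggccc
LSM11: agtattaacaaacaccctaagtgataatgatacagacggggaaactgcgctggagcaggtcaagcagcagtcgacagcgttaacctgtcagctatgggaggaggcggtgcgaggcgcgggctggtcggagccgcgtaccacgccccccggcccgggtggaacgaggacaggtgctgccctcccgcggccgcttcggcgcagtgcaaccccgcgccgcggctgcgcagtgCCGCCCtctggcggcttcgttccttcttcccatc
The CCAAT box stood in PRPF8, in PRPF19 at 2 places, in PRPF38B and in LSM10, so it occurred on both sides of the comparison. Over all members with a promoter it occurred in 7 of the 14 that rose, 2 of the 3 that fell and 8 of the 24 others. It was thus more common among the 3 shown that rose than among all that rose. PRPF38B also held the YY1 core, and LSM11 held 1 GC box and no CCAAT box. A match is a match of letters only.

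The members were abundant for their length. Their median in si-NC was 57.8 TPM, against 17.6 TPM for all tested protein-coding genes, and 38 of the 49 stood above that median. SNRPB was the highest at 633 ± 17 TPM, followed by SF3B5 at 402 ± 9.5 TPM, SNRPD2 at 311 ± 7.1 TPM, SNRPC at 276 ± 15 TPM, PRPF19 at 262 ± 4.3 TPM and LSM4 at 253 ± 4.8 TPM. The lowest were PRPF40B at 1.96 ± 0.24 TPM, U2AF1 at 2.26 ± 2.5 TPM, whose counts cannot be separated from its copy, and U2AF1L4 at 3.91 ± 0.14 TPM. Within the Sm ring, whose proteins are used in equal numbers, the transcripts differed in level from 45.8 ± 1.8 TPM (SNRPD1) to that of SNRPB. The length used covers all annotated exons of a gene, so the order depends on it. In CPM of si-NC, SNRPD1 (74.8) stood above SNRPE (54.3) and SNRPG (61.7). Added up, the members took 4213, 4206 and 4243 CPM in si-NC and 4354, 4492 and 4522 CPM in si-SRSF11, without overlap.

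**Figure D5:**
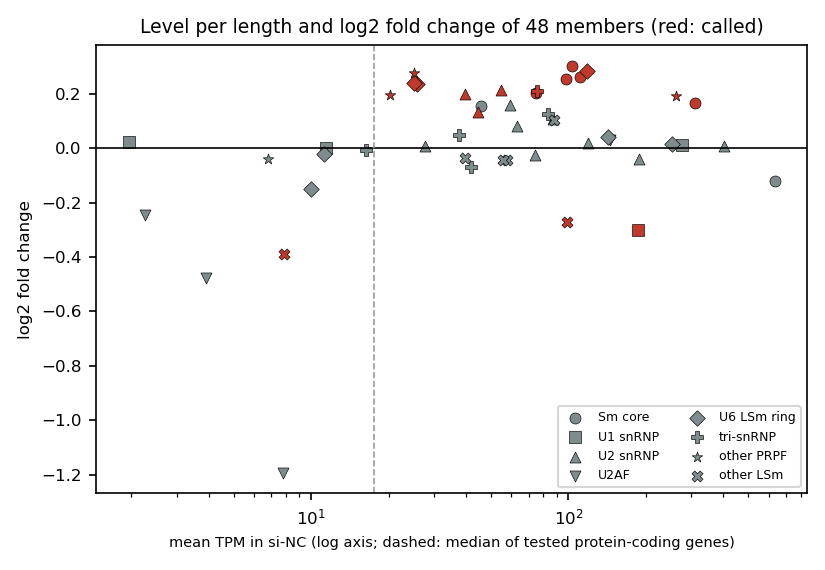
Mean TPM in si-NC (horizontal log axis) and log2 fold change of si-SRSF11 against si-NC (vertical axis) of 48 of the 49 tested members, with 1 symbol for each group and red for an adjusted p under 0.05. The dashed line is the median of tested protein-coding genes, 17.6 TPM, and of the called members only LSM11 lies to the left of it.

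Further snRNP proteins whose symbols do not match the naming rule were read from a list of 36, all tested. Of these 12 passed (33.3%, beside 24.6% of all tested genes), 11 higher and 1 lower, with a median log2 fold change of 0.095. SNRNP70, the U1-70K protein, had 2599, 2619 and 2797 reads with si-NC and 2732, 3063 and 3155 with si-SRSF11 and did not pass (log2 fold change 0.068, standard error 0.049, adjusted p = 0.344). SNRNP200, the U5 helicase that unwinds U4 from U6, had 5552, 5958 and 5979 reads with si-NC and 6427, 7031 and 6329 with si-SRSF11 and did not pass either (log2 fold change 0.088, standard error 0.048, adjusted p = 0.191). DDX23, the U5 helicase that displaces U1 from the 5′ splice site, had 1057, 1034 and 1128 reads with si-NC and 1384, 1606 and 1567 with si-SRSF11, with every si-SRSF11 library above si-NC (log2 fold change 0.41, standard error 0.056, adjusted p = 1.1e-05). EFTUD2, the U5 GTPase that binds PRPF8, had 2180, 2155 and 2304 reads with si-NC and 2893, 3034 and 3002 with si-SRSF11, again without overlap (log2 fold change 0.34, standard error 0.047, adjusted p = 1.4e-05).

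DDX46, the helicase that loads U2 (0.32, adjusted p = 2.3e-04), WBP4, a WW-domain protein of the activating spliceosome (0.41, adjusted p = 7.5e-04), SNRNP40, a U5 repeat protein (0.31, adjusted p = 0.00195), and SMNDC1, a Tudor-domain protein of U2 (0.30, adjusted p = 0.00230), rose as well. The 1 gene that fell was ZMAT5, a protein of the minor U11/U12 snRNP, named here after its value was seen, with 254, 238 and 310 reads with si-NC and 188, 240 and 194 with si-SRSF11 (log2 fold change -0.46, standard error 0.11, adjusted p = 0.00484).

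Of 21 genes for the assembly and import of snRNPs, all tested, 6 rose (28.6%), where 13.2% of all tested genes did, and none fell past the threshold, with a median log2 fold change of 0.14. In either direction, 24.6% of all tested genes and 27.4% of tested protein-coding genes passed, close to the share of the list. PHAX, which exports new snRNAs to the cytoplasm, had 492, 522 and 563 reads with si-NC and 642, 685 and 710 with si-SRSF11, without overlap (log2 fold change 0.28, standard error 0.065, adjusted p = 0.00305). GEMIN5, the SMN-complex subunit that recognises snRNAs (0.24, adjusted p = 0.00370), USB1, which trims the tail of U6 (0.18, adjusted p = 0.00777), CLNS1A, which holds Sm proteins before loading (0.17, adjusted p = 0.0245), and GEMIN4 (0.22, adjusted p = 0.0301) rose. SMN1 passed too (0.95, adjusted p = 0.0373), with 233, 221 and 260 reads with si-NC and 241, 244 and 994 with si-SRSF11. Its libraries overlapped, and the rise rested on si-SRSF11 replicate 3, as replicates 1 and 2 lay within the si-NC range. SMN1 and SMN2 are nearly identical copies, so that the split of reads between them is uncertain. SMN2 had 120, 137 and 122 reads with si-NC and 120, 123 and 121 with si-SRSF11, and did not pass (-0.15, adjusted p = 0.440). The source of the high SMN1 count in si-SRSF11 replicate 3 was not tested. Without si-NC replicate 1 or without si-NC replicate 2 the number of this list that passed was 3.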

How the data were processed

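Poly(A)-selected RNA of LoVo cells was sequenced as paired-end reads, in 3 libraries after si-NC and 3 after si-SRSF11. The authors deposited raw counts per gene in 1 table, without normalization or a filter on low counts, and name hg38 as the genome build. The aligner, the counting program and its handling of strand are not given in the sources used here. Identifiers, names, coordinates and gene lengths of the 58735 rows equal those of GENCODE 29, and 26909 rows had 0 counts in every library. Library totals were 14369525 to 16685719.

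Samples were grouped by their labels. The deposited counts of genes that reached 10 in 3 or more libraries were scaled by TMM and tested with edgeR (version 4.0.16, R version 4.3.3, glmQLFit and glmQLFTest) on condition, with Benjamini-Hochberg adjustment over all 15801 tested genes. Standard errors came from the quasi-likelihood F statistic. TPM used the gene lengths of the table, which cover all annotated exons of a gene. The fit was tested on simulated data. Alternatives were DESeq2 (version 1.42.0), other scalings and filters, protein-coding genes alone, the replicate number as a block, a stricter threshold and fits without 1 library. The sum of U2AF1 and U2AF1L5 was added after the data were seen.

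The members, their groups and the further lists were chosen with earlier results of these data known. Every member is named but 1, which is not reported here, and counts are given for those with an adjusted p under 0.05 and, in each group, for the highest other in CPM. Of the further lists, up to 6 genes with the smallest adjusted p are named, with SNRNP70 and SNRNP200. Promoters, from RefSeq, and motifs were chosen after the values were seen. Gene counts hold no junction reads, so splicing events were not analysed here.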

Additional observations from a re-analysis of the deposited data

How the results depend on the processing

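SRSF11 kept its direction and its call in every fit, and the median log2 fold change of the members stayed between -0.0035 and 0.065. The number of members called was 11 at an adjusted p under 0.01 (8 higher, 3 lower), 13 with DESeq2 (10 higher, 3 lower), 15 with scaling by library size (11 and 4), 16 by the upper quartile (13 and 3), 18 with no filter or with protein-coding genes alone (14 and 4 in both) and 20 with 10 counts asked of all 6 libraries (17 and 3). With a library left out it was 12 to 20, of which 9 to 17 were higher and 2 to 4 lower. The snRNP proteins outside the naming rule gave 8 to 12 calls with a library left out. The assembly genes gave 3 calls with DESeq2, 3 at an adjusted p under 0.01 and 3 to 5 with a library left out. The 24.6% of all tested genes that passed belongs to the main edgeR fit at an adjusted p under 0.05. The share in the other fits, the block fit below among them, is not given here. The counts of these fits therefore cannot be compared with a background. SNRPN, without counts, has no value in any fit.

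Signs turned in genes near 0 that passed in none of these fits. With scaling by library size these were PRPF39 (-0.032), PRPF40B (-0.011), SNRPC (-0.023), SF3B4 (-0.016), SF3B5 (-0.025), SNRPA1 (-0.027), U2AF2 (-0.0035) and LSM4 (-0.020). By the upper quartile they were PRPF39 (-0.0062) and SNRPA1 (-0.00081), and with protein-coding genes alone PRPF39 (-0.0095), SF3B5 (-0.0023) and SNRPA1 (-0.0040). PRPF39 also turned with no filter (-0.0045) and with DESeq2 (-0.0038). With a library left out, signs turned within ranges of -0.062 to 0.034 (PRPF39), -0.12 to 0.13 (PRPF40B), -0.027 to 0.060 (SNRPC), -0.066 to 0.020 (SF3A2), -0.030 to 0.063 (SF3B4), -0.038 to 0.040 (SF3B5), -0.024 to 0.041 (SNRPA1), -0.026 to 0.073 (LSM2), -0.044 to 0.060 (LSM4), -0.043 to 0.013 (LSM8), -0.067 to 0.050 (PRPF3), -0.19 to 0.046 (PRPF31), -0.16 to 0.039 (PRPF18), -0.12 to 0.018 (LSM1) and -0.12 to 0.018 (LSM12). The copies U2AF1 (-0.68 to 1.28) and U2AF1L5 (-2.16 to 0.46) also turned, with calls in some of these fits. The cause was not tested.

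The study speaks of pairs without numbering them, and the replicate numbers of the labels were not taken as pairs. Deviations from the condition means correlated across genes by 0.00021, 0.053 and 0.066 between equal numbers. Between unequal numbers the correlation was -0.063 to 0.0087. These values are small and do not settle whether equal numbers form pairs. With the replicate number as a block, 21 members passed (18 higher, 3 lower), among them SNRPD1 (adjusted p = 0.0326) and SF3A1 (adjusted p = 0.0260), and U2AF1 turned to 0.016. Beyond the noise of counting, the coefficient of variation between libraries of a condition was 5.34% by edgeR's common estimate over all tested genes.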

Other observations

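The table also lists 67 pseudogenes named after members, of which 22 had counts and 3 were tested. LSM12P1, whose parent LSM12 shares 20.5% of its 100-base windows with it, had 374, 341 and 306 counts in si-NC and 430, 465 and 351 in si-SRSF11 (adjusted p = 0.193 by edgeR's quasi-likelihood test). SNRPGP15 had 27 to 49 counts (adjusted p = 0.866) and SNRPEP4 had 9 to 57 counts (adjusted p = 0.171), so none of the 3 passed. All of them together took 402 to 601 counts in a library.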
